A study of Mus musculus with 2 samples.

Results

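The genes of the endoplasmic reticulum (ER) chaperones and of the unfolded protein response were compared between 2 populations of B16F10 cells, one with NRF3 expression and one with GFP expression. The list of 34 genes was named by symbol, by a rule that uses no measured value, though earlier results of these data were known when it was drawn up. Of these, 31 had a named probe set on the array, out of 19505 genes with one. Pdia4, Manf and Mbtps2 were not analysed here. Each of the 31 measured genes had a single probe set, and all 31 passed the detection floor of 5.89, so none was left out for a low value. B16F10 is a mouse melanoma line. One cell population carried a GFP expression plasmid and the other an NRF3 expression plasmid, and both had been selected with puromycin after co-transfection of a puromycin resistance vector. Both had then been given forskolin, an activator of adenylate cyclase, for 5 days, so no group without forskolin entered the comparison. The labels do not say whether the selected cells were clones or pools, nor which promoter drove the plasmids. Nor do they say from which species the NRF3 sequence came. Each group had 1 array. With no replicates, the differences below carry neither an error nor a p-value and hold for this pair of RNA samples.

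Proteins that enter the ER are folded there by chaperones, chiefly the HSP70 protein BiP and the HSP90 protein GRP94, by protein disulfide isomerases and by a lectin cycle built on calnexin and calreticulin. When unfolded proteins accumulate, the membrane sensors IRE1, PERK and ATF6 start the unfolded protein response. IRE1 splices the mRNA of the transcription factor XBP1, PERK slows translation, and ATF6 is cut in the Golgi by the site-1 and site-2 proteases to release a transcription factor. XBP1 and the ATF6 fragment act on many chaperone genes through the ER stress response element. NRF3, encoded by Nfe2l3, is itself a transcription factor held at the ER membrane. Pigment cells send much membrane protein through the ER, tyrosinase among them, whose folding depends on the lectin chaperones.

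Nfe2l3, the mouse gene that encodes NRF3, was checked first. Transcripts of the plasmid and of the cells' own gene were not told apart. Nfe2l3 read 6.04 in GFP and 10.15 in NRF3 cells, where values are log2 on the scale of the robust multi-array average. The GFP value lay under 6.12, the median there of the array's control rows with neg in their names, so the size of the overexpression is not measured. Melanocyte markers were bright, with 7 of 7 detected and no value under 11.67. Of 16 listed markers of leukocytes, fibroblasts, endothelium and epithelium, 13 were on the array and 0 were detected, with no value above 5.67. All array values are averages over the cells harvested, so a change in the number of cells of a kind and a change of RNA per cell cannot be told apart.

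The ER stress response element was looked for first, as it is the sequence through which this group of genes is best known. Its letters, CCAAT, then 9 bases of any kind, then CCACG, were searched on both strands in the 250 bases before the annotated start (RefSeq, GRCm38.p6). Of the 31 measured genes, 26 had such a window, and Atf6, Hyou1, Sec61a1, Sil1 and Tmbim6 did not. Among the 26 genes, 7 held the element, or 26.9%, against 17 of 8387 detected genes with a window, or 0.203%. The element was defined in the literature on promoters of this gene class, so its presence here is background and not a result. The 8 matches in these 7 genes are shown as a description only. They are read in the direction of the element, with its fixed letters in capitals and the 9 free bases in lower case.
Hspa5: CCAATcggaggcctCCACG
Hsp90b1, distal match: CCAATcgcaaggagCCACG
Hsp90b1, proximal match: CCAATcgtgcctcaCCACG
Calr: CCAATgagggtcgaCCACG
Canx: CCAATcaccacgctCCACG
Pdia6: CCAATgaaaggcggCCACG
Dnajc3: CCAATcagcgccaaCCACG
Creld2: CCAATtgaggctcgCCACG
Of the 8 matches, 5 lay on the strand of the gene and 3 on the other, and their first bases lay between 212 and 65 bases before the start. All 7 genes belonged to the chaperones, isomerases and their cofactors, of which 16 had a window. None of the 7 sensor, transcription factor and protease genes with a window held a match.

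Promoters of the 2 element-bearing genes with the largest differences and of the 1 with the smallest are shown whole, so that the surroundings of the element can be compared. Capitals mark the element as it stands on the strand of the gene. The windows are chr8:84846932-84847181 on the minus strand for Calr, chr15:88819396-88819645 on the plus strand for Creld2 and chr11:50325674-50325923 on the minus strand for Canx.
Calr: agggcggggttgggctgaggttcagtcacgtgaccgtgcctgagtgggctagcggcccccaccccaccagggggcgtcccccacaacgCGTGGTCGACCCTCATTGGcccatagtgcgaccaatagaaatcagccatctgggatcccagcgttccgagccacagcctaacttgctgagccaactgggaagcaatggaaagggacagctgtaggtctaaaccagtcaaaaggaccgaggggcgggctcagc
Creld2: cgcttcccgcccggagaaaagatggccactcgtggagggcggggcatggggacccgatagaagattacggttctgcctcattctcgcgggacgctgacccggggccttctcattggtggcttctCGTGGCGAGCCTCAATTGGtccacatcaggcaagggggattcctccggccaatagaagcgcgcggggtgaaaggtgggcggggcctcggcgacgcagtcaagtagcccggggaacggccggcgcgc
Canx: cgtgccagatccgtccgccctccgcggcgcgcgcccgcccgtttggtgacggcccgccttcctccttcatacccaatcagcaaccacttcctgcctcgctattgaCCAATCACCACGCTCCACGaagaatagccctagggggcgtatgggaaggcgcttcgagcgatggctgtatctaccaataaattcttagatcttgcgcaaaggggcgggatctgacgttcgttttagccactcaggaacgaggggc
Each of the 3 windows holds 1 element. The genes were picked from both ends of the range of the element-bearing genes, so their standing there is not a result.

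As a group, these ER genes were higher in the NRF3 cells. The median difference of NRF3 minus GFP over the 31 genes was 0.50 on the log2 scale, or 1.41-fold, against a median of -0.07 over all 10162 detected genes. At least 1.5-fold higher were 14 of the 31, or 45.2%, where 17% of all detected genes were. At least 1.5-fold lower were 2, or 6.45%, where 23.6% of all detected genes were. By the 2-fold rule 8 genes were higher and 0 lower, beside 6.75% and 11% of all detected genes. In all, 25 genes lay above 0 and 6 below, beside 45.8% and 54.2% of all detected genes, and of the 6 Canx crossed 0 after median centring and Canx and Uggt1 after subtraction of the chromosome median. Of the 31 genes, 16 lay above 0.39, the upper quartile of all detected genes. Relative to the median of all genes the members' median stood 0.57 higher. Centring each column on its median raised the median of all genes by 0.13 and the members' median by the same constant. Quantile normalization raised the median of all genes by 0.10 and left a distance of 0.53. Median centring also raised the share of higher genes among all genes past 1.5-fold from 41.9% to 53.5%. The fold is a rule of size and not a test.

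**Figure D1:**
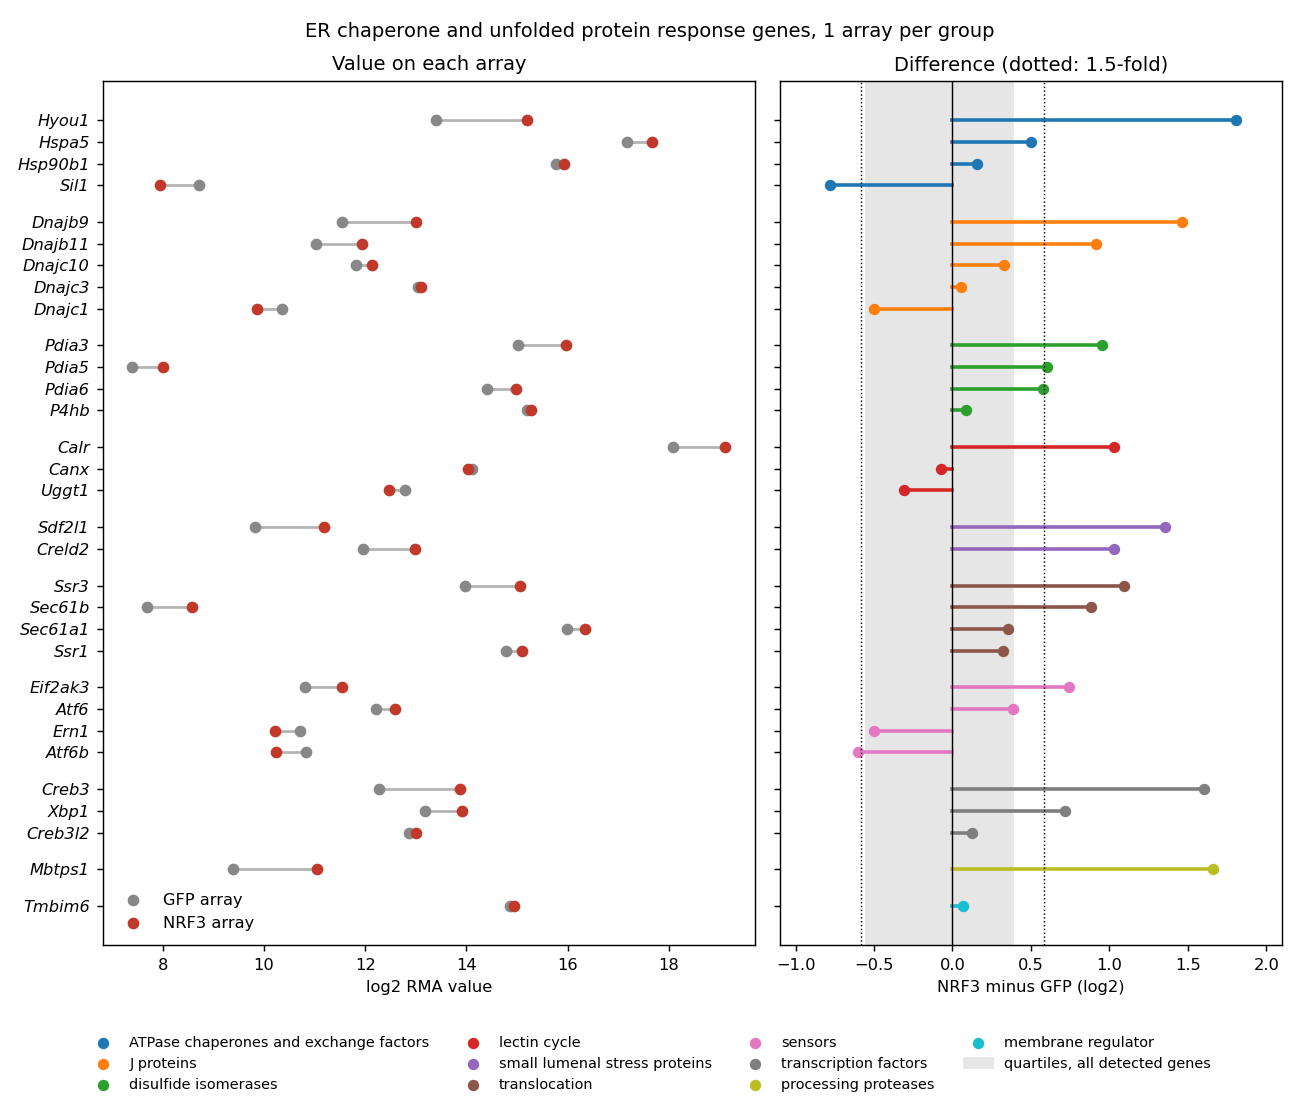
Left, log2 RMA values of the 31 genes on the GFP array (grey) and the NRF3 array (red), ordered by role. Right, the difference of NRF3 minus GFP, with dotted lines at 1.5-fold either way and a grey band from -0.55 to 0.39, the quartiles of all detected genes. Of the 31 genes, 14 lie beyond the right dotted line and 2 beyond the left.

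**Figure D2:**
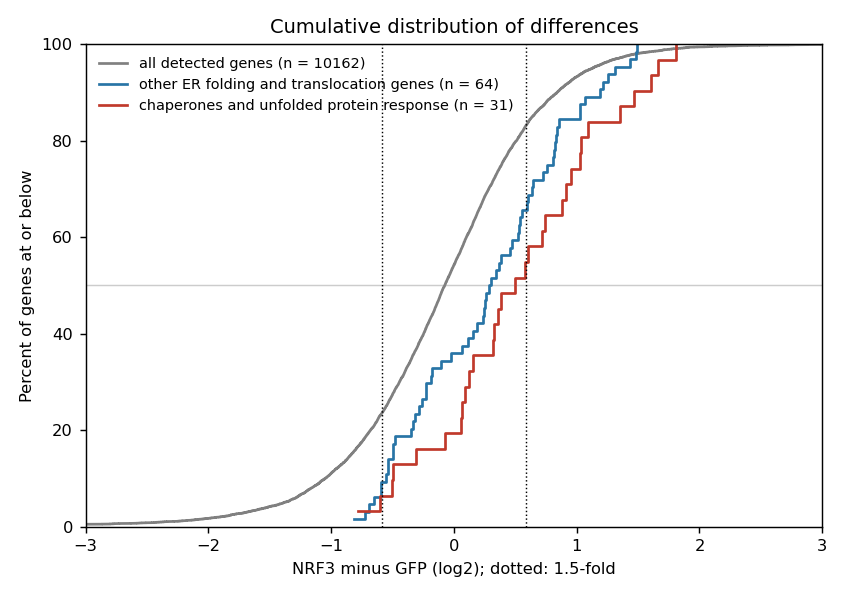
Cumulative percent of genes (vertical axis) at or below each log2 difference of NRF3 minus GFP (horizontal axis, drawn from -3 to 3), for all 10162 detected genes, for 64 other detected ER folding and translocation genes and for the 31 genes described. The 3 curves cross 50% at -0.07, 0.29 and 0.50.

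Chaperones, isomerases and their cofactors were read apart from the sensors, as the list intended. In the deposited values both classes had nearly the same median, but with chromosome medians subtracted the medians were 0.59 and 0.81. The 18 chaperone, isomerase and cofactor genes had a median of 0.54, and 8 of them were at least 1.5-fold higher and 1 was lower by the same rule. The 8 sensor, transcription factor and protease genes had a median of 0.55, with 4 higher and 1 lower. Of all detected genes 17% were higher and 23.6% lower. The spread within the classes was wide, from -0.78 to 1.81 in the first and from -0.60 to 1.66 in the second. The 4 translocation genes had a median of 0.62.

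Of the ATPase chaperones, BiP lay at the members' median and GRP94 near 0, while the exchange factors of BiP stood at opposite ends. Hspa5 (NCBI gene 14828), which encodes BiP, read 17.17 in GFP and 17.67 in NRF3 cells. Its difference was 0.50, or 1.41-fold, short of the 1.5-fold rule. After median centring it was 0.62, and with the median of its chromosome subtracted 0.73, both past the rule. Hspa5 lay above 16 on both arrays, the most a scanner that stores 16 bits can give in log2, so its values are not plain log2 brightness and its fold is one on the deposited scale. Above a mean of 16, the quartiles of the difference over 165 detected genes were -0.45 and 0.24, closer together than the -0.57 and 0.39 of the 8274 detected genes with a mean up to 12. Hsp90b1, which encodes GRP94, read 15.77 and 15.93, a difference of 0.16. Hyou1 (NCBI gene 12282), which encodes the large HSP70-type protein GRP170 that exchanges nucleotide on BiP, read 13.39 in GFP and 15.20 in NRF3 cells. Its difference of 1.81, or 3.50-fold, was the largest of the 31 genes, and 99.0% of all detected genes had a lower one. Sil1, which encodes another exchange factor of BiP, read 8.71 and 7.93 and was 1.71-fold lower, the lowest difference of the 31 genes. Its NRF3 value lay close to 7.85, the upper quartile there of the control rows with neg in their names. The fold of Sil1 may therefore depend on background. The 2 exchange factors of the same chaperone therefore lay 1 on each side.

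J proteins, the cofactors that bring substrates to BiP and start its ATPase, were split. Dnajb9 (NCBI gene 27362) encodes ERdj4, a known target of XBP1 that acts back on IRE1. It read 11.53 in GFP and 13.00 in NRF3 cells, a difference of 1.47 or 2.76-fold. Dnajb11, which encodes ERdj3, a soluble J protein that binds unfolded substrates, read 11.02 and 11.93 and was 1.88-fold higher. The other three J protein genes stayed inside 1.5-fold. Dnajc10, whose product ERdj5 also reduces disulfide bonds, read 11.81 and 12.14, a difference of 0.33. Dnajc3, which encodes the PERK inhibitor p58IPK, read 13.05 and 13.11, a difference of 0.06. Dnajc1, of a membrane J protein, read 10.35 and 9.85, a difference of -0.50. Of these genes Dnajc3 is the one whose promoter holds the element shown above.

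All 4 measured disulfide isomerase genes lay above 0, between 0.09 and 0.95, beside 45.8% of all detected genes above 0. These enzymes form and reshuffle disulfide bonds. Pdia3 encodes ERp57, which works on glycoproteins with calnexin and calreticulin. It read 15.02 in GFP and 15.97 in NRF3 cells, or 1.94-fold higher. Pdia6, which encodes P5, a partner of BiP, read 14.41 and 14.98, a difference of 0.58 or 1.49-fold, just under the rule. Centring on the median took it to 0.70, past the rule. Pdia5 read 7.39 and 7.99, a difference of 0.60 or 1.52-fold, just past the rule. Its GFP value lay under 7.52, the upper quartile there of the control rows with neg in their names, so its fold may depend on background. P4hb, which encodes the founding isomerase PDI, read 15.19 and 15.28, a difference of 0.09. Of the best known pair, ERp57 and PDI, the gene of the first was past the rule and that of the second near 0.

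The genes of the lectin cycle differed in size and sign. Calr (NCBI gene 12317), which encodes soluble calreticulin, read 18.09 in GFP and 19.12 in NRF3 cells, a difference of 1.03 or 2.04-fold on the deposited scale. Like Hspa5, it lay above 16 on both arrays. Canx, which encodes the membrane-bound calnexin, read 14.11 and 14.04, a difference of -0.07 that turned to 0.05 after median centring and to 0.08 with its chromosome's median subtracted. Uggt1, which encodes the glucosyltransferase that returns unfolded glycoproteins to the cycle, read 12.78 and 12.47, a difference of -0.31. Calr lies on chromosome 8, where 549 detected genes had a median of 0.56, and Uggt1 on chromosome 1, where 552 had a median of -0.51. With the median of its own chromosome subtracted, Calr differed by 0.47, no longer past 1.5-fold, and Uggt1 by 0.20. The part of the chromosomes in these values was not tested further.

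Both measured genes of small stress-induced proteins of the ER lumen were at least 2-fold higher, where 6.75% of all detected genes were. Sdf2l1 (NCBI gene 64136), whose product joins BiP complexes and is among the genes best known to respond to ER stress, read 9.83 in GFP and 11.18 in NRF3 cells, a difference of 1.35 or 2.55-fold. Creld2, an ER stress target with cysteine-rich repeats, read 11.95 and 12.98, also 2.04-fold higher. Neither lies on chromosome 8 or chromosome 1.

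The 4 measured genes of the translocon were all above 0, where 45.8% of all detected genes were. Sec61 is the channel through which nascent chains enter the ER, and the translocon-associated protein complex (TRAP) assists it. Sec61a1, of the pore subunit, read 15.99 in GFP and 16.35 in NRF3 cells, a difference of 0.36. Its NRF3 value lay above 16, the scanner limit given for Hspa5. Sec61b, of a small subunit, read 7.69 and 8.57 and was 1.84-fold higher. Its GFP value lay close to 7.52, the upper quartile there of the control rows with neg in their names, so its fold may depend on background. Of the TRAP subunits, Ssr1 read 14.78 and 15.10, a difference of 0.32, and Ssr3 read 13.97 and 15.06, or 2.13-fold higher. On the deposited scale, subunits of one complex thus differed by unequal amounts.

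Among the sensors, PERK was the one past the rule on the higher side in the deposited values, with Atf6 joining it after subtraction of the chromosome median. Eif2ak3, which encodes PERK, read 10.80 in GFP and 11.54 in NRF3 cells, a difference of 0.74 or 1.67-fold. Ern1, which encodes IRE1, read 10.71 and 10.22, a difference of -0.50. The ATF6 paralogs lay on opposite sides of 0. Atf6 read 12.21 and 12.60, a difference of 0.39, and Atf6b read 10.83 and 10.23, or 1.52-fold lower. Atf6 lies on chromosome 1, and with that chromosome's median subtracted its difference was 0.90, past the rule. Atf6b kept its sign but came inside the rule under median centring, at -0.47, quantile normalization, at -0.50, lowess subtraction, at -0.53, and chromosome subtraction, at -0.33.

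The 3 transcription factor genes had a median of 0.72 and the 4 sensor genes one of -0.06. Xbp1 (NCBI gene 22433), the factor activated by IRE1, read 13.19 in GFP and 13.91 in NRF3 cells, a difference of 0.72 or 1.65-fold. The single value per gene does not tell the spliced from the unspliced transcript, so IRE1 activity was not measured. Creb3 (NCBI gene 12913) encodes Luman, a membrane-bound factor of the ER that is cut by the same proteases as ATF6. It read 12.26 and 13.87, a difference of 1.60 or 3.04-fold, and 98.4% of all detected genes had a lower one. Its relative Creb3l2 read 12.87 and 12.99, a difference of 0.13. Mbtps1 (NCBI gene 56453), which encodes the site-1 protease that makes the first cut in ATF6 and in the sterol regulators, read 9.39 and 11.06, a difference of 1.66 or 3.16-fold. Mbtps1 lies on chromosome 8 and stayed past the rule with that chromosome's median subtracted, at 1.10. Tmbim6, of a membrane protein that restrains IRE1, read 14.86 and 14.93, a difference of 0.07.

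Without the 4 genes on chromosomes 1 and 8, a choice made after the data were seen, 12 of 27 genes were at least 1.5-fold higher and 2 lower. The median was 0.50. Over all detected genes of the other chromosomes the shares were 15.8% and 23.2%. The 31 genes lay on 16 chromosomes.

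**Figure D3:**
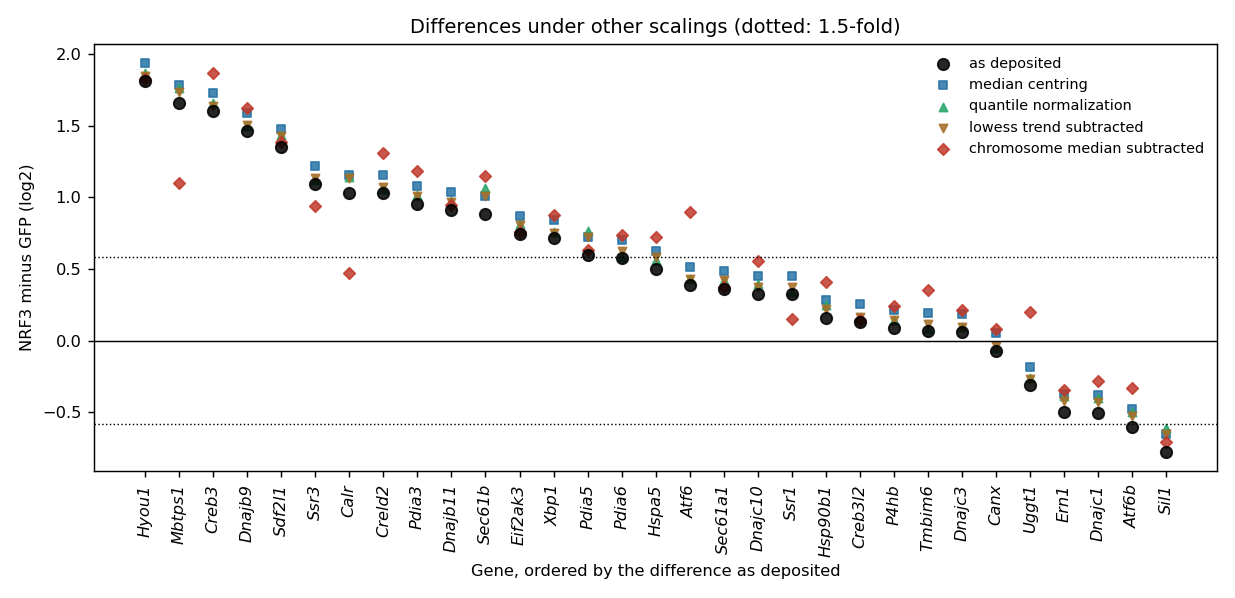
Log2 differences of NRF3 minus GFP (vertical axis) for the 31 genes (horizontal axis, ordered by the deposited difference), as deposited (black) and under 4 other scalings, with dotted lines at 1.5-fold. Calr is past 1.5-fold as deposited, at 1.03, and inside it with its chromosome's median subtracted, at 0.47.

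Differences were also set out by the promoter element. The 7 genes that hold it had a median of 0.50, with 2 at least 1.5-fold higher and 0 lower. The 19 genes with a window but no match had a median of 0.72, with 11 higher and 1 lower. Of all detected genes 17% were higher and 23.6% lower. By the 2-fold rule 2 of 7 and 5 of 19 were higher, beside 6.75% of all detected genes. After median centring 4 of 7 and 11 of 19 were at least 1.5-fold higher, beside 21.8% of all detected genes. Under quantile normalization 2 of 7 and 11 of 19 were higher, beside 20.9% of all detected genes. Lowess subtraction and chromosome subtraction each gave 3 of 7 and 11 of 19, beside 19.3% and 18.2%. The size of the contrast at 1.5-fold therefore depends on the scaling. The genes with the element had the lower median in each setting, 0.62 against 0.84 after median centring. This contrast was not tested. Of the other 10 detected genes on the array with the element, 1 was higher and 2 were lower, with a median of 0.22. These are 10% and 20%, near the 17% and 23.6% of all detected genes. Above 0 lay 8 of the 10 and below it 2, beside 45.8% and 54.2% of all detected genes. A looser form, with any base at the last but one place of CCACG, chosen after the data were seen, was found in the same number of these genes, 7 of 26, and in 0.537% of detected genes with a window. It added a match in Hsp90b1, CCAATcggaactgtCCAgG, which lies between the pair shown above.

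Other known elements were rarer or absent in these windows. The second ER stress element, ATTGG, then 1 base of any kind, then CCACG, shares CCACG and the reverse complement of CCAAT with the first. It was found in 0 of 26 genes and in 0.0715% of detected genes. The XBP1 element TGACGTGG was found in 0 of 26 and in 0.942% of detected genes, and the cAMP element TGACGTCA, which shares TGACGT with it, in 0 of 26 and in 3.06%. The core of the antioxidant response element, TGACNNNGC, is the kind of site bound by NRF3 and its relatives with small MAF partners. Its letters can overlap those of the XBP1 element. The antioxidant core was found in 5 of 26 genes, or 19.2%, against 13.5% of detected genes. These genes were Calr, Pdia3, Sec61b, Ern1 and Atf6b, of which Calr, Pdia3 and Sec61b were at least 1.5-fold higher and Atf6b was lower by the same rule. Of all detected genes 17% were higher and 23.6% lower, and of the 31 members 45.2% and 6.45%. With its chromosome's median subtracted Calr came inside the rule, at 0.47, and Atf6b did so at -0.33. The fold of Sec61b may depend on background. A link of these differences to the element was not tested. A match in letters is a description and shows no binding.

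Other genes of ER folding and entry were taken from a list of 72 names, 69 of them on the array and 64 detected. At least 1.5-fold higher were 22 of the 64, or 34.4%, beside 17% of all detected genes, and 6 were lower, or 9.38%, beside 23.6%. The median was 0.29. The highest were Sec11c, a catalytic subunit of the signal peptidase, at 1.49, Ufm1, the ubiquitin-like modifier of ER-bound ribosomes, at 1.48, Prkcsh, the beta subunit of glucosidase II, at 1.44, and Spcs3, of the signal peptidase, at 1.31. Spcs3 lies on chromosome 8, and with the median of that chromosome subtracted it lay at 0.75. The lowest were Tmx3, a membrane thioredoxin, at -0.81, the oxidase gene Ero1a at -0.72, Ppp1r15b, a phosphatase subunit that reverses the action of PERK, at -0.69, and the prolyl isomerase gene Fkbp9 at -0.65. Subtraction of the chromosome median brought Ero1a to -0.57 and Ppp1r15b, on chromosome 1, to -0.19, both inside the rule. Median centring brought Ppp1r15b to -0.56 and Fkbp9 to -0.53.

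By role, to be read against the same 17% and 23.6%, targeting and translocation genes had the highest median of these other genes, 0.48, with 8 of 19 higher and 0 lower. Glycosylation genes had a median of 0.42, with 5 of 10 higher and 1 lower. Of the oligosaccharyltransferase subunits, Ostc lay at 1.25 and Rpn2 at -0.59, only just past the rule. Rpn2 lies on chromosome 2, where the median of detected genes was -0.23. Prolyl isomerase genes had 3 of 6 higher and 1 lower. Of the higher ones Ppib lay at 1.22, while Fkbp2 and Fkbp11, each at 0.60, were only just past the rule. The GFP value of Fkbp11, 7.44, lay under 7.52, the upper quartile there of the control rows with neg in their names. The oxidases and other thioredoxin-fold genes had 1 of 13 higher, Prdx4 at 1.07, and 2 lower, with a median of 0.19. The regulators had 5 of 16 higher and 2 lower. Among them, Nfya, Nfyb and Nfyc encode the factor that binds the CCAAT part of the element. They lay at -0.59, -0.23 and -0.56, with Nfya only just past the 1.5-fold rule and Nfyb and Nfyc inside it. Nfya lies on chromosome 17, where the median of detected genes was -0.27.

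**Figure D4:**
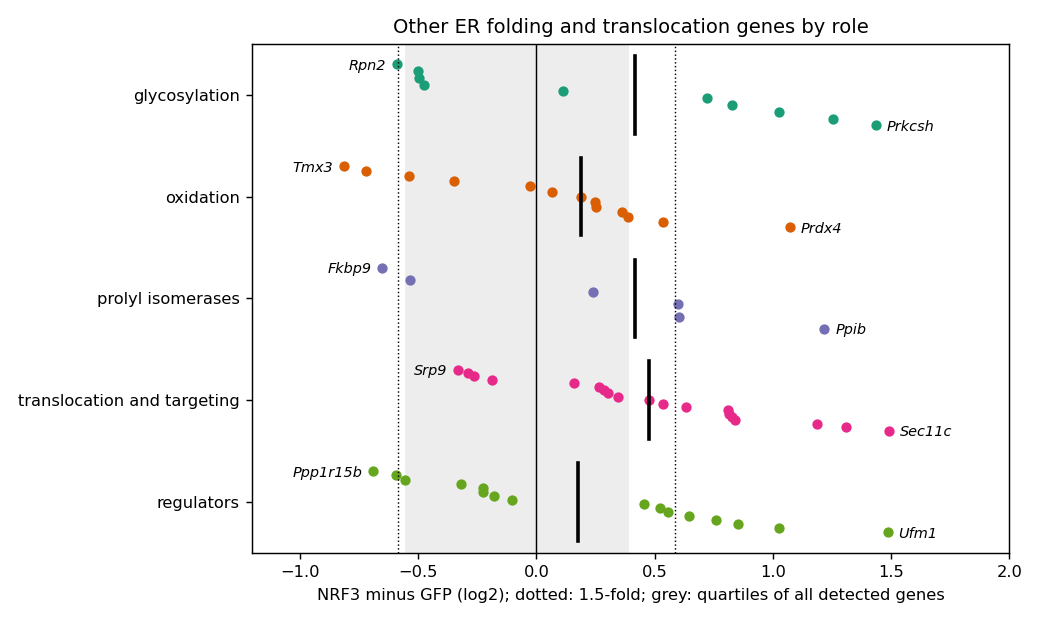
Log2 differences of NRF3 minus GFP (horizontal axis) for 64 other detected ER genes in 5 roles (vertical axis). Points are genes, black bars are medians, dotted lines mark 1.5-fold and the grey band spans the quartiles of all detected genes. The translocation and targeting genes have the highest median, 0.48, and the oxidation genes a median of 0.19.

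A few genes downstream of the sensors, chosen with their values known, are set beside these values. Of the degradation genes Edem1, Herpud1 and Sel1l, which respond to ER stress, Edem1 lay at 1.03, Herpud1, on chromosome 8, at 1.73 and Sel1l at 0.53, inside 1.5-fold. Of 3 genes downstream of PERK, 1 lay near 0 and 2 were at least 1.5-fold lower, where 23.6% of all detected genes were. Atf4 read 16.36 in GFP and 16.44 in NRF3 cells, a difference of 0.08. Like Hspa5, Atf4 lay above 16 on both arrays. Ddit3, which encodes the death-linked factor CHOP, read 13.84 and 12.96, a difference of -0.89, and Trib3 lay at -0.85. Ddit3 had 2 probe sets, and the values are of the one with the higher mean. All of these are RNA values, so PERK activity was not measured.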

How the data were processed

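Total RNA from 2 B16F10 populations was measured on 2 arrays, 1 per group, so there were no replicates and the number of arrays limits the precision. The deposited log2 values were made with Affymetrix Expression Console and RMA, per the submitters' processing notes, and the genome build is not given in the sources used here. Of 28846 rows, 19572 had 1 gene symbol in the platform annotation, and all of these matched RefSeq (GRCm38.p6) by gene number. For each gene the probe set with the highest mean was used. A gene was detected when its brighter value reached 5.89, the 50th percentile of both columns over rows with a symbol, which is not a measured background. Differences are NRF3 minus GFP, counted by a fold of at least 1.5 and not tested. The members and lists were chosen with earlier results of these data known. All members, the 4 highest and 4 lowest genes of the wider list, and markers are named by rule. Genes given beyond these were chosen after their values were seen. Alternatives were median centring, quantile normalization, lowess subtraction (span 0.3), a floor at the 75th percentile, no floor, the mean over probe sets, chromosome median subtraction and a 2-fold rule. The code (Python 3.11.15, pandas 2.3.3, statsmodels 0.14.6) was checked on simulated data with known shifts.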

Additional observations from a re-analysis of the deposited data

How the results depend on the processing

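Of the 31 members, 26 kept their side of the 1.5-fold rule under median centring, quantile normalization, lowess subtraction and chromosome subtraction, and 13 of the 14 higher genes did so. The exceptions were Hspa5, Pdia6, Atf6, Atf6b and Calr. The higher floor left 28 members, without Sil1, Pdia5 and Sec61b. Removing the floor and averaging probe sets could not change a member, since all 31 passed the floor with 1 probe set each. The count of higher members was lowest at 12 of 28, with the floor at the 75th percentile, beside 17.8% of all detected genes. It was highest at 16 of 31, after median centring or chromosome subtraction, beside 21.8% and 18.2% of all detected genes. The count of lower members was 1 under median centring, quantile normalization, lowess subtraction, the higher floor and chromosome subtraction. Under these settings between 18.9% and 24.1% of all detected genes were lower. By the 2-fold rule 8 members were higher and 0 lower, and in the wider list 10 and 0, beside 6.75% and 11% of all detected genes. The wider list had 2 lower genes under median centring and under chromosome subtraction, where 18.9% and 19.5% of all detected genes were lower. The members' median passed 1.5-fold after median centring, at 0.62, and chromosome subtraction, at 0.63. The median of the chaperones and isomerases did so at 0.66 after median centring, 0.60 after lowess and 0.59 after chromosome subtraction. The median of the sensors, factors and proteases did so at 0.68, 0.59 and 0.81 under the same 3 settings and at 0.59 after quantile normalization. No median of these lists changed sign under the alternatives run. With 1 array per group, no setting shows how far cultures of one kind differ. No paired analysis was possible because each group had 1 array.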
